A study of Mus musculus with 4 samples.

Results

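Chromosome 11 carried 683 of the 9428 Flag-Sp5 peaks in the deposited list, 7.24% of all peaks. The members are every peak listed on that chromosome, and the chromosome itself was chosen by its measured peak density, the highest of the 19 autosomes. Its density is therefore given as a description with no test. The peaks come from chromatin immunoprecipitation and sequencing (ChIP-seq) in A2Lox.cre mouse embryonic stem cells, a line in which a chosen cDNA is switched on by doxycycline. The study had 4 libraries. In 2 of them Flag-Sp5 was precipitated with the M2 antibody against the Flag tag (4 µg), and 2 were input chromatin, with no antibody. All 4 libraries carry the same label for doxycycline induction, which in the protocol began on day 2 of embryoid body growth and lasted 24 h, and all were taken on day 3. The titles of the input libraries do not name Sp5, and the labels do not say whether inputs and precipitations came from the same cultures. The data concern the tagged and induced protein and do not measure binding of the cells' own Sp5, and no Flag precipitation from cells lacking Flag-Sp5 was analysed here.

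Sp5 is a zinc-finger factor of the SP/KLF family. Members of this family bind GC-rich DNA, much of it at gene starts, and Sp5 is switched on by Wnt/β-catenin signalling as embryonic cells leave pluripotency towards primitive streak and mesoderm. Mouse chromosome 11 is known as a gene-rich autosome, much of its distal part being homologous to human chromosome 17. In the GRCm38.p6 gene table it carried all 23 genes of a list drawn up for it. They include Wnt3, Wnt9b, Wnt3a and Wnt9a, which encode Wnt ligands; Tcf7, which encodes a nuclear partner of β-catenin; and Axin2, a feedback inhibitor of the pathway. Sp2 and Sp6, relatives of Sp5, are also on it, as are 10 Hoxb genes, which pattern the body axis. In that table Wnt3 and Wnt9b are neighbours with 0 protein-coding genes between them, as are Wnt3a and Wnt9a, and Sp2 and Sp6. Peak coordinates are on mm9, a different build from this gene table, so no peak was assigned to any of these genes and no sequence under a peak is shown. All positions below are 1-based on mm9.

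Chromosome 11 had the highest peak density of the autosomes, the value it was chosen by. The 683 peaks lay between 3024088 and 121563720, a span of 118.5 Mb, which gave 5.76 peaks per Mb (95% Poisson interval 5.34 to 6.21). Just below it came chromosome 5 with 4.95 peaks per Mb (4.60 to 5.32) and chromosome 17 with 4.76. The other 18 autosomes together had 3.76 peaks per Mb, so that chromosome 11 was 1.53 times as dense (95% interval 1.42 to 1.66). With 4.93% of the autosomal span it held 7.37% of the autosomal peaks. It was not the autosome with most peaks, since chromosome 5 had 737 and chromosome 2 had 725. The intervals treat peaks as independent and cover counting error only, which is too narrow for peaks that cluster, and the list holds no value for a single library. Comparisons below are therefore ranks and ranges over the autosomes, with no test.

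Peaks were spread over nearly the whole chromosome. It was cut into bins of 1 Mb counted from coordinate 1, of which 117 lay whole between the first and the last peak and held 673 of the peaks. A bin held 5.75 ± 4.75 peaks (SD over 117 bins) with a median of 5, against 3.74 ± 3.79 (SD over 2263 bins) and a median of 3 on the other autosomes. Only 4 bins of chromosome 11 held no peak, which is 3.42% (95% Wilson interval 1.34 to 8.46%). On the other autosomes the share of empty bins ran from 8.93% on chromosome 19 to 25.7% on chromosome 7, and chromosome 5, the nearest in density, had 14.9%. Bins with exactly 1 peak made up 11.1% of chromosome 11, where the other autosomes had a median of 19.05%. At the upper end, bins of 7 to 10 peaks made up 20.5%, above the highest of the other autosomes at 16.5%. Its share of bins with 4 to 6 peaks, 30.8%, lay inside the range of the others (16.8 to 31.0%). Counts per bin carry the density that chose the chromosome, so fewer bins at the low end and more at the high end follow in part from that choice.

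**Figure D1:**
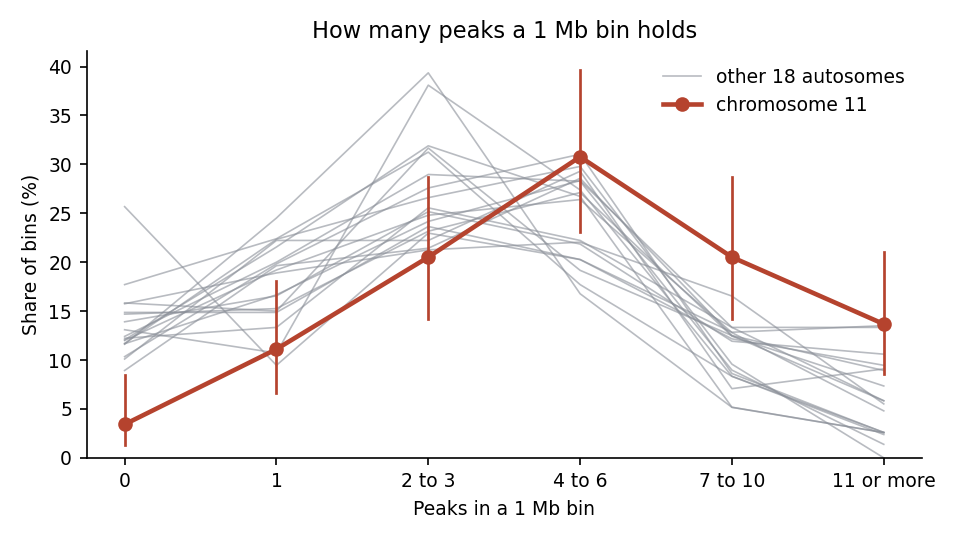
Share of 1 Mb bins (%, vertical axis) by the number of peaks in a bin (horizontal axis), for chromosome 11 (red, with 95% Wilson intervals) and each of the other 18 autosomes (grey lines). Chromosome 11 has the lowest share of empty bins, 3.42%, and the highest share of bins with 7 to 10 peaks, 20.5%.

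Without a break, 73 successive bins held at least 1 peak, from 48 to 121 Mb. The longest such run on another autosome was 46 bins, on chromosome 5, and the shortest was 11, on chromosome 7. This run held 537 of the 683 peaks, 7.36 per Mb. When the bins were shifted by 500 kb the longest run on chromosome 11 was 50 bins and that on another autosome 51, and among peaks wider than the median of the list these were 28 and 36 bins, so the lead in run length was lost in both settings. The share of empty bins on chromosome 11 remained below that of each other autosome after the shift (5.93% against 7.02% or more) and in bins of 500 kb (15.7% against 19.3% or more).

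Density was uneven along the chromosome, with most peaks distal to its middle. Mouse chromosomes have the centromere at their low-coordinate end, so distal means higher coordinates. Of the 683 peaks, 463 (67.8%) lay distal to the midpoint of the span and 220 proximal to it. The distal side had 7.81 peaks per Mb (95% Poisson interval 7.12 to 8.56), the highest among the 38 sides of the 19 autosomes. The distal sides of chromosomes 5 and 4 followed with 7.04 and 6.62. The proximal side of chromosome 11 had 3.71 peaks per Mb (3.24 to 4.24), rank 22 of 38 and near the 3.76 of the other autosomes taken whole. Within the chromosome the higher density was thus on the distal side. The proximal side was still denser than the proximal sides of chromosomes 5 and 4, which had 2.86 and 2.30 peaks per Mb. A distal excess was also found elsewhere, and the distal share on chromosome 11 ranked 4 of 19.

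In blocks of 10 Mb the low point was from 10 to 20 Mb, with 16 peaks and 3 of the 4 empty bins. The block from 40 to 50 Mb held 23 peaks and the remaining empty bin. Counts rose to 75 peaks from 60 to 70 Mb, 93 from 90 to 100 Mb and 103 from 110 to 120 Mb. Between these came lower blocks, 57 peaks from 80 to 90 Mb and 77 from 100 to 110 Mb, so the increase was not steady. Neighbouring bins resembled each other, with a Pearson correlation of 0.49 over 117 bins, a description of bins that share 1 list; it ran from 0.18 to 0.71 on the other autosomes.

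**Figure D2:**
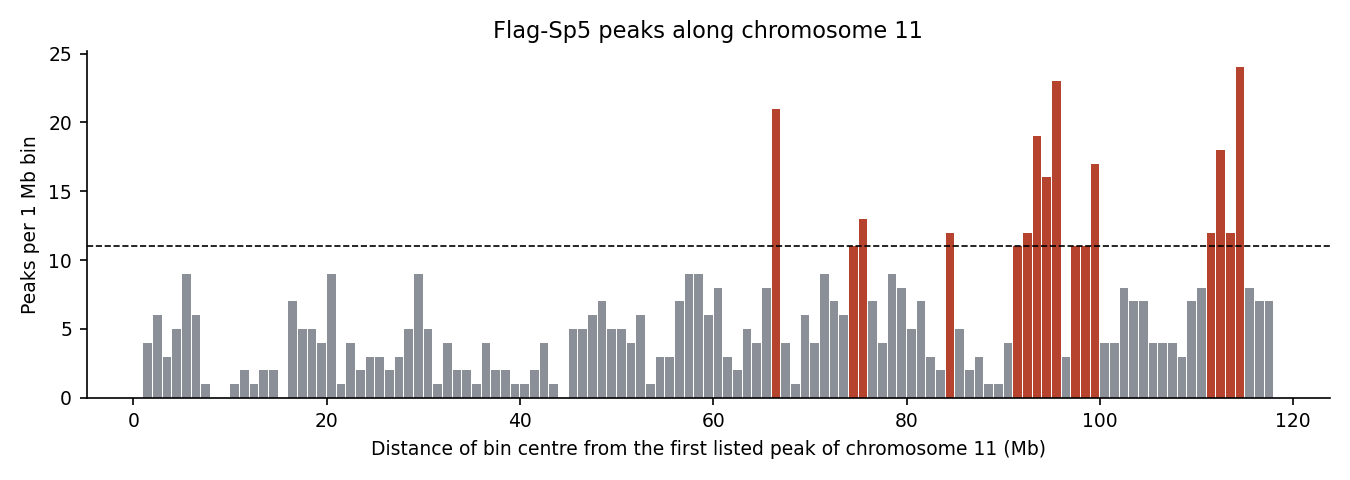
Peaks per 1 Mb bin (vertical axis) along chromosome 11, by the distance of the bin's centre from the first listed peak in Mb (horizontal axis). Red bars are the 16 bins with 11 or more peaks (dashed line), all in the distal part; 4 bins are empty.

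A bin was counted as dense with 11 or more peaks, the 95th percentile of the bins on the other autosomes. Chromosome 11 had 16 dense bins, 13.7% of its bins. Chromosomes 5 and 17 had nearly the same share, 13.5% and 13.3%, whereas their shares of empty bins were 14.9% and 12.2%. None of the dense bins lay before 69 Mb. They formed 6 stretches, of which the longest ran from 94 to 99 Mb with 81 peaks in 5 bins. A stretch of 4 bins from 114 to 118 Mb held 66 peaks, and 3 bins from 100 to 103 Mb held 39.

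The densest bin, from 117 to 118 Mb, held 24 peaks, of which 12 had another peak midpoint within 10 kb. Next came 98 to 99 Mb with 23 peaks, 10 of them with such a neighbour, and 69 to 70 Mb with 21 peaks, 12 of them with one. These bins differed in their surroundings. The bin at 69 Mb stood between bins of 8 and 4 peaks, and the bin at 98 Mb followed 3 bins of 12, 19 and 16 peaks and was followed by one of 3. The bin at 96 Mb held 19 peaks, that at 115 Mb 18, that at 102 Mb 17 and that at 97 Mb 16. Among these, 4 peaks in each of the bins at 96 and 102 Mb had another within 10 kb, near the share of the whole chromosome, 23.6%. Close neighbours were more frequent at 115 Mb, where 10 peaks had one, and at 97 Mb, where 7 had one. A high count in a bin therefore did not always come with a larger share of close neighbours. The bin from 95 to 96 Mb shows this most plainly, since none of its 12 peaks had a neighbour within 10 kb. The remaining bins of the 12 densest were at 78 Mb with 13 peaks and at 87, 114 and 116 Mb with 12 peaks each. Of these peaks, 2 at 78 Mb, 4 at 87 Mb, 7 at 114 Mb and 2 at 116 Mb had a neighbour within 10 kb. Among the 12 bins, the share was above that of the whole chromosome at 69, 87, 97, 98, 114, 115 and 117 Mb. It was near or below that share at 78, 95, 96, 102 and 116 Mb. Together the 12 bins held 199 peaks, 29.6% of the peaks in 10.3% of the bins. Without the 10 densest bins of every autosome, the ratio of chromosome 11 to the others was 1.57, against 1.53 with them.

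The variance of peaks per bin was 3.91 times the mean on chromosome 11. The other autosomes ran from 1.86 on chromosome 16 to 6.12 on chromosome 5, and chromosome 11 ranked 6 of 19. In alternative settings its rank ran from 4 (bins shifted by 500 kb) to 9 (only peaks wider than the median of the list). For clustered peaks this measure tends to rise with the mean per bin, which was highest on chromosome 11. The rank therefore does not tell how evenly its peaks were spread beside the other autosomes.

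**Figure D3:**
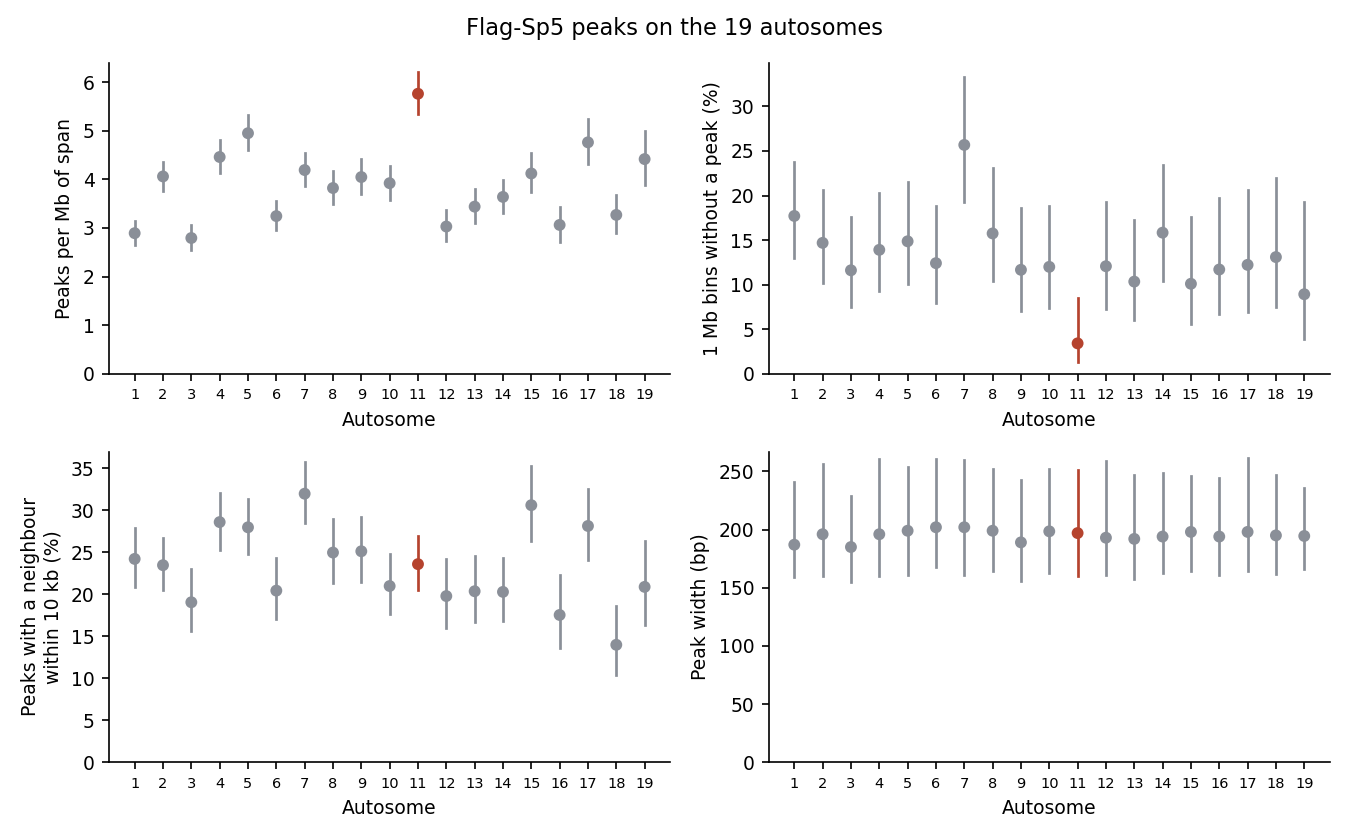
The panels plot measures (vertical axes) on each of the 19 autosomes (horizontal axes), with chromosome 11 in red: peaks per Mb with 95% Poisson intervals, empty 1 Mb bins and peaks with a neighbour within 10 kb (both % with 95% Wilson intervals), and median peak width in bp with the central 50% of peaks. Chromosome 11 is highest in density (5.76) and lowest in empty bins (3.42%), and in mid-range in close neighbours (23.6%) and width (197 bp).

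Long stretches without peaks were few on chromosome 11, which follows in part from the density that chose it. It had 14 stretches of over 1 Mb between neighbouring peaks, which took up 19.9 Mb or 16.8% of its span. On the other autosomes such stretches took up 21.2% (chromosome 19) to 40.9% (chromosome 7) of the span, and 34.5% over all 18. A stretch without peaks is one in which nothing passed the authors' threshold, not one shown to lack binding, and the share of it to which reads can be mapped was not analysed here.

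The longest stretch ran from 10238195 to 13318016, 3.08 Mb, and was the only one over 3 Mb. It was 1.60 times as long as the second, from 46679717 to 48604194, which measured 1.92 Mb. Only chromosomes 19 and 15 had a shorter longest stretch. Among peaks wider than the median of the list this order turned, and the longest stretch of chromosome 11 was 7.03 Mb, above the median of 5.58 Mb on the other autosomes. Of the 14 stretches over 1 Mb, 12 began in the first 50 Mb. One of the 2 exceptions was the third longest, from 70483002 to 71964850 (1.48 Mb), which lay beyond the dense bin at 69 Mb. The pair from 16245426 to 17621898 (1.38 Mb) and from 17622368 to 19102647 (1.48 Mb) was parted by only 2 peaks, of 197 and 155 bp, with midpoints 0.293 kb apart. The others of the 10 longest ran from 41572072 to 42972856 (1.40 Mb), from 24004044 to 25373718 (1.37 Mb), from 44356785 to 45613573 (1.26 Mb), from 14670205 to 15867696 (1.20 Mb) and from 55421557 to 56563632 (1.14 Mb).

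With stretches of over 1 Mb left out of the span of every autosome, chromosome 11 had 6.92 peaks per remaining Mb (95% Poisson interval 6.41 to 7.46), rank 4 of 19. Chromosome 5 had 7.24 (6.73 to 7.78), chromosome 7 had 7.09 and chromosome 17 had 6.98. The ratio to the other autosomes fell to 1.21. Leaving out such stretches raises a sparse chromosome more than a dense one by construction, so the change of rank is a description of this measure only.

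**Figure D4:**
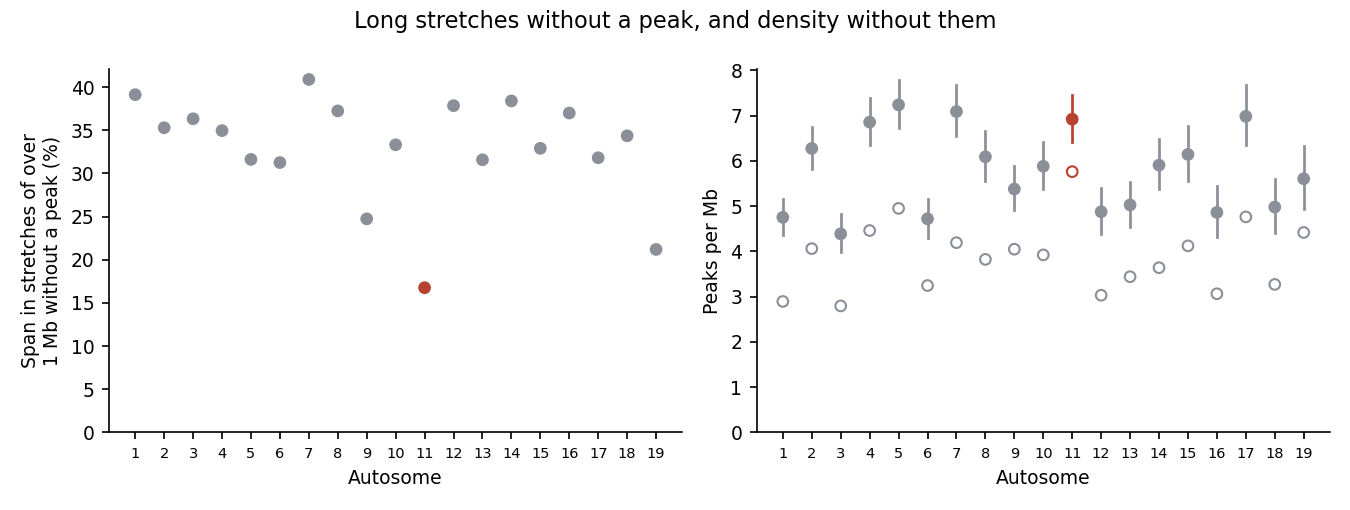
Left, share of each autosome's span (%) in stretches of over 1 Mb without a peak. Right, peaks per Mb over the whole span (open circles) and without those stretches (filled circles, 95% Poisson intervals). Chromosome 11 (red) has the lowest share, 16.8%, and ranks 4 of 19 in density without the stretches, at 6.92.

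The mean spacing of peaks on chromosome 11, 173.8 kb, was the smallest of the 19 autosomes, while its share of close neighbours was in mid-range. Spacing depends on density, which chose the chromosome, and is given as a description. Of the 683 peaks, 161 had a neighbour within 10 kb, 23.6% (95% Wilson interval 20.5 to 26.9%). The other autosomes ranged from 14.0% on chromosome 18 to 31.9% on chromosome 7, and chromosome 11 ranked 9 of 19. Its rank was 15 for neighbours within 5 kb and 4 within 50 kb, and 3 within 10 kb among peaks wider than the median of the list. The median distance to the nearest midpoint was 37.2 kb, rank 6 of 19 from the shortest. It was shorter on chromosomes 7 (29.0 kb), 5 (30.3 kb), 17 (31.5 kb), 4 (35.2 kb) and 15 (36.3 kb), all of which had fewer peaks per Mb.

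The distances piled up in the middle of the scale. For 357 peaks, 52.3% of them all, the nearest neighbour was 10 to 100 kb away (interval 48.5 to 56.0%), above the highest of the other autosomes at 50.2%. Both ends were thin. Within 0.5 kb, 12 peaks (1.76%, 1.01 to 3.05%) had a neighbour, below the lowest other autosome at 2.36% and against 4.04% over all 18. More than 500 kb from any other peak stood 9 (1.32%, 0.695 to 2.49%), below the lowest other autosome at 2.76% and against 4.43% over all 18. Between 0.5 and 1 kb there were 28 peaks (4.10%), near the 3.80% of the others, so that 40 peaks in all had a partner within 1 kb. That was 5.86% of the peaks, rank 14 of 19 and inside the range of the other autosomes (4.12 to 12.1%). The lowest place among the autosomes within 0.5 kb was thus not kept at 1 kb.

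**Figure D5:**
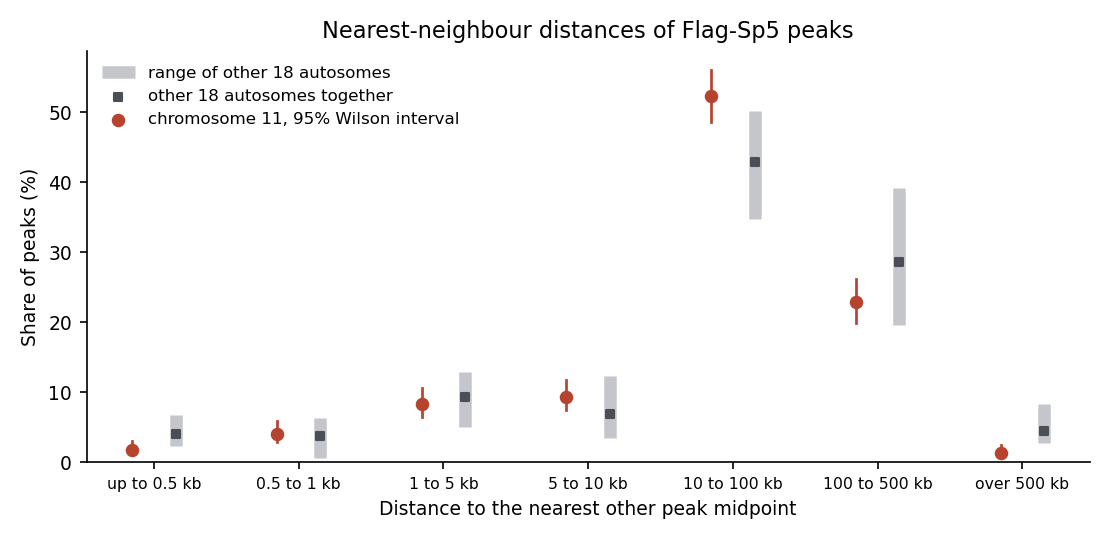
Share of peaks (%, vertical axis) by distance to the nearest other peak midpoint (horizontal axis), for chromosome 11 (red, 95% Wilson intervals), the other 18 autosomes together (squares) and their range (grey bars). Chromosome 11 lies above the range from 10 to 100 kb (52.3%) and below it within 0.5 kb (1.76%) and beyond 500 kb (1.32%).

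Close neighbours were concentrated in the distal blocks, where peaks were also denser. Such a share depends on local density, and it was not compared along other autosomes. From 110 to 120 Mb, 42 of 103 peaks (40.8%) had another within 10 kb, and from 60 to 70 Mb 24 of 75 (32.0%). From 30 to 40 Mb this was true of 2 of 36 peaks (5.56%). The block from 70 to 80 Mb had 68 peaks and only 8 with such a neighbour (11.8%), the lowest share of any block beyond 50 Mb apart from the last, incomplete one with 10 peaks and none.

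The group with most peaks within 100 kb lay from 69178442 to 69242581, where 8 peaks fell in 64.1 kb. Their widths ran from 141 to 524 bp with a median of 233 bp. The peak of 524 bp, from 69211711 to 69212234, had its nearest neighbour 1.32 kb away, and 2 others, from 69218746 to 69218931 and from 69219075 to 69219231, had midpoints 0.315 kb apart. This group was moderate beside other autosomes, of which 6 had a group of more peaks, up to 12 on chromosome 9, and 3 had one of 8.

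Groups of 7 peaks lay from 114656602 to 114736752 (80.2 kb), from 115168373 to 115238053 (69.7 kb) and from 98601878 to 98653726 (51.8 kb). The last of these was the most compact of the 7 groups named. Its widths ran from 169 to 405 bp with a median of 241 bp, and its first 5 peaks, from 98601878 to 98610834, came before a wider interval. Groups of 6 lay from 96161736 to 96258929, from 94851015 to 94946467 and from 117276227 to 117359121. The first of these was evenly laid out, with steps of 11.1 to 30.5 kb between midpoints, while the second consisted of 3 peaks at its start and 3 at its end with a step of 83.7 kb between. All 7 groups lay in dense bins, which follows in part from choosing groups by their number of peaks.

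The most isolated peak, from 13318017 to 13318225 (209 bp), closed the longest stretch and stood 1063 kb from its nearest neighbour. Next were peaks from 38240488 to 38240647 at 810 kb and from 56563633 to 56563858 at 768 kb. The 9 peaks over 500 kb from any other were 146 to 229 bp wide with a median of 184 bp, and 7 of them lay before 60 Mb.

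Peak widths on chromosome 11 were those of the list as a whole. The median was 197 bp (95% order-statistic interval 192 to 203 bp), with the central 50% between 160 and 251 bp. The other 18 autosomes together had a median of 195 bp, single ones ran from 185 to 202 bp, and chromosome 11 ranked 8 of 19. The smallest width in the list, 141 bp, was shared by 52 peaks of chromosome 11 (7.61%, against 7.05% over the other autosomes). Peaks wider than 300 bp numbered 98 (14.3%, against 13.8%). In width the densest autosome was thus inside the range of the others.

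The largest peak width was low beside that of the other autosomes, although peaks over 500 bp did occur. The widest, from 109771808 to 109772381, measured 574 bp, the second smallest maximum of the 19 autosomes after the 551 bp of chromosome 16. It stood 299 kb from the nearest peak in a bin of 4. Then came peaks from 74643890 to 74644431 (542 bp), from 52561347 to 52561881 (535 bp), from 9089451 to 9089975 (525 bp) and the 524 bp peak of the 69 Mb group. These 5 were the only ones over 500 bp. The other autosomes had 2 to 14 such peaks with a median of 6.5, and chromosome 11 ranked 11 of 19. These are counts, on autosomes that differ in their number of peaks. Of the 10 widest, the others were from 62734300 to 62734796 (497 bp), from 51671980 to 51672462 and from 97523011 to 97523493 (483 bp each), from 73273206 to 73273682 (477 bp) and from 81094413 to 81094872 (460 bp). Dense bins held 2 of the 10, at 69 and 97 Mb, and 243 of all 683 peaks. The nearest neighbours of the 10 widest peaks were between 0.56 and 299 kb away.

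Width was nearly the same in dense and other bins. The 243 peaks in dense bins had a median of 199 bp (interval 189 to 209 bp) and the other 440 a median of 197 bp (189 to 205 bp). Peaks with a neighbour within 10 kb had a larger median, 210 bp (161 peaks, interval 199 to 222 bp), than those without, 193 bp (522 peaks, interval 187 to 199 bp). Near peaks had the larger median on 16 of the 19 autosomes, by 17 bp on chromosome 11, and the smaller on chromosomes 3, 12 and 18. The smallest width was found for 7 of the 161 near peaks (4.35%) and 45 of the 522 others (8.62%). These comparisons were not tested, since peaks of 1 list are not replicates.

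Set against protein-coding genes, chromosome 11 was inside the range of the other autosomes. The GRCm38.p6 table lists 1609 protein-coding genes on it, the third highest number. Here only the chromosome of each gene was used, not its position. This gave 0.424 peaks per protein-coding gene, rank 13 of 19, against 0.450 over the other 18 autosomes and a range from 0.308 on chromosome 7 to 0.581 on chromosome 5. Counted per gene of any kind, 3087 on this chromosome, the value was 0.221 and its rank 4 of 19. Per protein-coding gene, then, the autosome with most peaks per Mb carried no more peaks than most others, and whether its peaks lie at genes was not analysed here.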

How the data were processed

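A single list of peaks was deposited by the authors, holding 3 columns per peak (chromosome, start counted from 0, end) and no score, signal or value per library. Bowtie, Picard, MACS2 and HOMER are named as tools, and mm9 as build, per the submitters' processing notes, with no versions or roles. The threshold, and any pooling of libraries, is not given in the sources used here. Depth is unknown for this reason, no replicate error can be given, and the labels do not say whether libraries came from separate cultures.

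Starts were made 1-based. Bins of 1 Mb were counted from coordinate 1 and peaks assigned by midpoint; stretches run from peak end to next start, distances between midpoints. Density is peaks over the span from first to last peak. Intervals (95%) are exact Poisson for densities, exact conditional for the ratio, Wilson for shares and order-statistic for medians. Regions named are the 10 densest bins, 10 longest stretches, 10 widest peaks and 5 densest groups within 100 kb, ties for the last place kept. The 10 Mb blocks, the sides of the midpoint, bin classes, distance classes, runs of bins and isolated peaks were chosen after seeing the values. Chromosome 11 and all lists were chosen with earlier results of these data known. Genes were matched by symbol to the RefSeq GRCm38.p6 table (23 of 23). Distances to gene starts and motif searches were planned for the case of an mm9 genome and were not run. Python 3.11.15, pandas 2.3.3, NumPy 2.4.6 and SciPy 1.17.1 were used, and the procedures were tested on simulated lists.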

Additional observations from a re-analysis of the deposited data

How the results depend on the processing

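No paired analysis was possible because libraries are not separated in the list, which also prevented leaving out a replicate. Of 46 alternatives over 11 results, 23 left the value inside its interval or, for counts, within 1.5 times. Variance over mean and the longest stretch have no interval, so any change counted. Keeping only wider peaks, or changing a bin size or distance, alters several values by construction, so this count does not measure robustness. Keeping only peaks wider than the median (353 on chromosome 11) gave a density of 2.99 per Mb, variance over mean of 2.56, 18 empty bins (15.4%, against 24.4% or more elsewhere), a longest run of 28 bins, 20.1% with a neighbour within 10 kb, a median nearest distance of 78.1 kb and a longest stretch of 7.03 Mb. Without peaks of the smallest width, density was 5.32 and variance over mean 3.52. With peaks less than 500 bp apart merged (667 left), variance over mean was 3.73 and 20.5% had a neighbour within 10 kb. Shifted bins gave 7 empty bins and variance over mean of 4.12; bins of 500 kb gave 37 and 2.69, and bins of 2 Mb gave 0, as on 3 other autosomes, and 5.87. The share with a neighbour was 1.76% within 0.5 kb, 14.2% within 5 kb, 57.7% within 50 kb and 18.9% within 10 kb without the 10 densest bins. The density ratio was 1.21 without stretches of over 1 Mb and otherwise 1.52 to 1.60, with chromosome 11 the densest in those 5 settings. Peaks per gene of any kind were 0.221. The empty bins of other sizes, the 0.5 kb distance, the neighbour share without dense bins and all settings for runs were added after seeing the data. Merging left the share within 10 kb of chromosome 11 at rank 6 of 19, against 9 before. An absent peak cannot be read as absent binding at unknown depth.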

Other observations

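Chromosome 11 contributed 4 of the 22 autosomal 1 Mb bins with 19 or more peaks, and 5 bins on other autosomes held more than its highest bin of 24. It had 117 whole bins against 2263 on the other autosomes, and high counts carry the density that chose it. Nearest neighbours from 1 to 5 kb away were found for 8.35% of its peaks, against 9.39% over the other 18 autosomes. From 5 to 10 kb the order turned, with 64 of its peaks (9.37%), rank 2 of 19, against 6.85%. With peaks less than 500 bp apart merged, chromosome 11 kept 667 of 683 regions, and the whole list 9144 of 9428. The closest pair on it, from 98821339 to 98821546 and from 98821593 to 98821796, was parted by 46 bp.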
